A study of Bombus terrestris with 33 samples.

Results

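Brain mRNA of SR queens was compared with that of SM queens by sequencing, with 1 library per queen, in Bombus terrestris, the buff-tailed bumblebee. These were 16 of the 33 queens of the series, 8 per group, chosen by the group name in each sample's label. SR queens had mated, spent 8 weeks in hibernation at 5 °C and been frozen 1 month after it ended, when their ovaries were found to be developed and to hold mature eggs. SM queens had mated and were frozen 3 days later, without hibernation. Queens of both groups were offered males from 5 days of age, and all came from commercial colonies kept in the laboratory. At freezing, SR queens were 94 to 97 days old, with a median of 95.5, and SM queens were 11 to 20 days old, with a median of 15. The SR group was selected by dissection from the hibernated queens, while SM queens were frozen before ovary development could be judged. The other 17 queens entered the scaling, the estimate of the spread between queens, the colony levels where a colony term was fitted, and the side values named as theirs. They were 8 FR queens, treated as the SR queens were but with undeveloped ovaries, and 9 FM queens, which were offered males as the SM queens were but did not mate. FR queens were 91 to 102 days old and FM queens 6 to 27 days old, a wider range than that of the SM queens. The labels give ages without a unit, and they were read as days from the rearing protocol.

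Bumblebee queens mate late in the season, pass the winter in diapause, and found a nest alone in spring. The founding queen forages, incubates her brood and lays eggs, while a newly mated queen feeds and prepares for diapause. Juvenile hormone, a product of glands attached to the brain, promotes egg development in bumblebees, and the brain directs the feeding, activity and egg-laying behaviour that differ between these stages.

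The SR queens came from colonies C2 (2 queens), C3 (3) and C9 (3), and the SM queens from colonies C2 (2), C3 (3) and C7 (3). Only C2 and C3 held both groups, so 10 of the 16 queens could be compared within a colony. Stage, age, hibernation and time since mating changed together in all 16 queens and cannot be told apart. Ovary development was judged in the SR but not in the SM queens, so it cannot be told apart from these either. Between the C9 and C7 queens colony changed as well. Queens of 1 colony share their origin, so a test without a colony term treats as independent queens that may not be.

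Total counts were 44365333 to 56845862 in SR libraries and 42858092 to 55807371 in SM libraries. Of 10672 contigs in the table, 8498 had a read in at least 1 of the 16 queens and 5508 had reads in all 16. After a filter on low counts 5606 contigs were tested. No identifier in the table matched any of the 13398 genes of the RefSeq reference table, so no contig could be given a gene name, role or sequence, and the brain label could not be checked against marker genes. The libraries are of whole brains, in which fewer cells of a type and less RNA per cell cannot be told apart.

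Principal components of log2 CPM (reads of a contig as a share of its library in parts per 1e6, scaled by TMM) placed most SR queens apart from most SM queens along the first component, with 21.8% of the variance. Scores there were -7.38 to 19.5 in SR queens, with 7 of the 8 at or above 7.95, and -25.7 to 18.2 in SM queens, with 6 of the 8 at or below -9.16. The exceptions were SR queen 47, at -7.38, and SM queens 19 and 25, at 17.0 and 18.2, inside the range of the other SR queens. Means were 11.5 ± 8.44 in SR and -11.5 ± 18.7 in SM queens (SD, n = 8 each; two-sided exact permutation p = 0.0109, adjusted p = 0.0653 over 6 library measures). With queens moved between groups only inside C2 and C3, the exact permutation p was 0.0333 (adjusted p = 0.1), where the smallest p this design allows is 0.0167. The second component held 11.4% of the variance, and scores there averaged -5.86 ± 14.8 in SR and 5.86 ± 9.00 in SM queens (SD, n = 8 each; exact permutation p = 0.0783, adjusted p = 0.157). The lowest scores there were those of the C9 queens 47, 48 and 49. With queens moved only inside C2 and C3, the SR minus SM difference on the second component was -2.60 (exact permutation p = 0.633, adjusted p = 0.76).

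**Figure D1:**
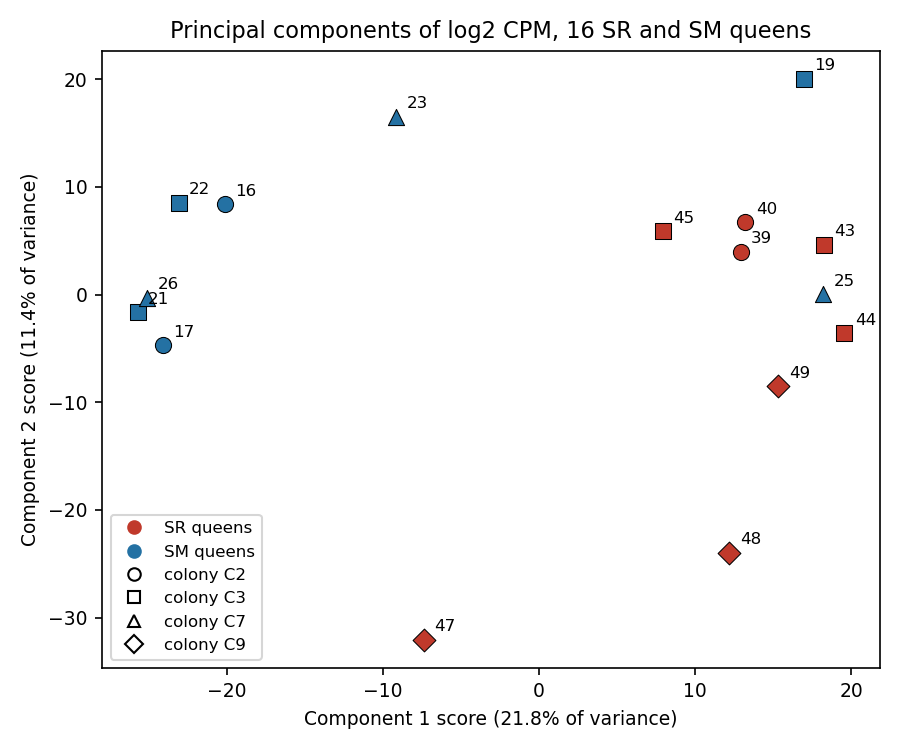
Scores of the 16 queens on components 1 and 2 of log2 CPM, 1 point per queen, with colour for group, shape for colony and the queen's number beside it. SR queens lie at 7.95 or above on component 1 apart from queen 47, and SM queens at -9.16 or below apart from queens 19 and 25.

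The most abundant contig of the table, Contig1004, moved in the same queens. It held 0.0655% of reads in SR queen 47 and 3.84% to 11.2% in the other SR queens. It held 6.17% in SM queen 19, 11.3% in SM queen 25 and 0.0728% to 2.17% in the other SM queens. The groups therefore overlapped over nearly their whole range, with means of 6.78 ± 3.62% in SR and 3.06 ± 3.81% in SM queens (SD, n = 8 each; exact permutation p = 0.0673, adjusted p = 0.157). With queens moved only inside C2 and C3, the SR minus SM difference was 6.11 percentage points (exact permutation p = 0.0333, adjusted p = 0.1). Colony means in CPM were 81221 in SR and 13825 in SM queens of C2, 95781 in SR and 26319 in SM queens of C3, and 48330 in SR queens of C9 against 54048 in SM queens of C7. By edgeR its log2 difference was 1.15 ± 1.06 without a colony term (SE; adjusted p = 0.651) and 1.43 ± 1.35 with it (SE; adjusted p = 0.741). In the other queens the order was the opposite, with 9731 ± 16471 CPM in FR and 38654 ± 44108 CPM in FM queens (SD, n = 8 and n = 9). The FR mean was also below the FM mean in C2 and in C3. The part of this contig in the separation on the first component was not tested.

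Total counts, the number of contigs detected and the share of the 10 most abundant contigs did not pass a test between the groups. Contigs detected were 6881 ± 53.3 in SR and 6878 ± 153 in SM libraries (SD, n = 8 each; exact permutation adjusted p = 0.960). The 10 most abundant contigs held 15.4 ± 4.17% of reads in SR and 12.4 ± 3.85% in SM libraries (SD, n = 8 each; exact permutation adjusted p = 0.219). No contig had reads in every queen of 1 group and in no queen of the other. Reads in some SR queens and in no SM queen were seen for 379 contigs, with at most 11 counts in a library, and the reverse for 322 contigs, with at most 10 counts.

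The distance between a pair of queens was taken as the root mean square difference of log2 CPM over contigs. It averaged 0.676 over the 28 SR pairs, 0.740 over the 28 SM pairs and 0.764 over the 64 pairs of an SR with an SM queen. Pairs from 1 colony averaged 0.633 in SR, 0.743 in SM and 0.739 between the groups. Pairs from different colonies averaged 0.690 in SR, 0.739 in SM and 0.771 between the groups. Over all pairs, an SR and an SM queen were thus on average only slightly farther apart than a pair of SM queens was. Within a colony they were no farther apart, at 0.739 against 0.743. SR queens were the closest to each other in each case. These are descriptions, since each queen enters many pairs.

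Without a colony term, 36 contigs differed between SR and SM queens, which is 0.642% of the 5606 tested, with 18 higher (0.321%) and 18 lower (0.321%) in SR queens (edgeR quasi-likelihood test, adjusted p under 0.05). The 18 higher contigs had log2 fold changes of 0.25 to 3.19 with a median of 0.89, and 5 were over 2-fold higher. The 18 lower contigs fell by 0.26 to 3.71 on the log2 scale with a median of 0.97, and 9 were over 2-fold lower. The median absolute log2 fold change of all tested contigs was 0.15. At an unadjusted p under 0.05 there were 836 contigs (14.9%), 385 higher and 451 lower in SR queens. The called contigs spanned low and high levels, with mean CPM of 0.331 to 3905 among the higher and 0.435 to 686 among the lower. The split was 18 higher and 10 lower under upper-quartile scaling, so the balance of directions depends on the scaling. The count rests on which colonies and queens are included. It was 5 without the C9 queens, all of them higher. Without the C7 queens it was 46, 20 higher and 26 lower, with 30 of them among the 36. It was 126 with only SR and SM queens in the fit. DESeq2 called 147 contigs and limma-voom with sample quality weights called 441. With 1 library left out the edgeR count was 7 to 106, lowest without SM queen 17, SM queen 22 or SR queen 47.

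Only 17 contigs (0.303%) had all 8 SR queens on one side of all 8 SM queens, 12 with every SR queen above (0.214%) and 5 with every SR queen below (0.0892%). Of the 36 called contigs, 7 did so, 6 higher and 1 lower in SR queens. For most called contigs, then, some queens of the groups overlapped. SM queen 25 lay inside the SR range for 23 of the 36 contigs and SM queen 19 for 11, while the other SM queens did so for 0 to 4. Over all tested contigs those shares were 74.6% for SM queen 25, 69.1% for SM queen 19 and 59.8% to 68.9% for the others, so SM queen 25, at 63.9% of the called contigs, lay nearest to its share over all. Each SR queen lay inside the SM range for 8 to 19 of the 36 (22.2% to 52.8%), against shares of up to 82.9% over all tested contigs, the lowest being that of SR queen 47. Leaving out SM queen 25 gave 106 calls, among them all 36, and leaving out SM queen 19 gave 64.

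Contig1083 rose in SR queens, which had 5.00 to 10.3 CPM with a median of 8.49, against 3.18 to 4.77 CPM with a median of 4.21 in SM queens. Every SR queen lay above every SM queen. The means were 8.16 ± 1.59 CPM in SR and 4.13 ± 0.453 CPM in SM queens (SD, n = 8 each), for a difference of 0.98 ± 0.18 on the log2 scale (SE; adjusted p = 0.00736 by edgeR). By colony, means were 8.32 CPM in SR and 4.29 CPM in SM queens of C2, 7.33 CPM in SR and 4.28 CPM in SM queens of C3, and 8.89 CPM in SR queens of C9 against 3.88 CPM in SM queens of C7. The call was lost without the C9 queens (adjusted p = 0.0849), while the alternatives to this fit without a colony term (by edgeR, DESeq2 and limma) gave adjusted p-values of 6.34e-05 to 0.0849. The other hibernated queens were also the higher ones, with 10.6 CPM on average in FR and 4.60 CPM in FM queens.

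Contig5102 rose in SR queens, which had 78.6 to 102 CPM with a median of 87.2, against 31.1 to 63.8 CPM with a median of 42.8 in SM queens. Here too the groups did not overlap. Means were 89.0 ± 8.71 CPM in SR and 45.9 ± 12.9 CPM in SM queens (SD, n = 8 each), for a difference of 0.96 ± 0.18 on the log2 scale (SE; adjusted p = 0.0114 by edgeR). The SR means differed little between colonies, at 88.2 CPM in C2, 87.8 CPM in C3 and 90.7 CPM in C9, while the SM means were 46.9 CPM in C2, 36.1 CPM in C3 and 55.1 CPM in C7. Against a minimum change of 1.2-fold the edgeR adjusted p was 0.0558, the largest over the alternatives to the fit without a colony term, and the smallest was 8.31e-05. FR queens averaged 64.3 CPM and FM queens 41.6 CPM.

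Contig2788 fell in SR queens, which had 0.906 to 3.20 CPM with a median of 2.17, against 2.61 to 16.1 CPM with a median of 9.55 in SM queens. The overlap came from SM queen 25, whose 2.61 CPM was the lowest SM value. Means were 2.05 ± 0.739 CPM in SR and 9.36 ± 5.32 CPM in SM queens (SD, n = 8 each), for a difference of -2.19 ± 0.48 on the log2 scale (SE; adjusted p = 0.0276 by edgeR). The SM queens were the more variable, and the SR means were lower in each colony. They were 2.90 CPM in SR and 6.45 CPM in SM queens of C2, 1.46 CPM in SR and 11.4 CPM in SM queens of C3, and 2.07 CPM in SR queens of C9 against 9.29 CPM in SM queens of C7. The call was lost without SM queen 17, 21, 22, 23 or 26, and without SR queen 43, 44, 47 or 48. It was also lost without the C9 queens, with only C2 and C3 queens, against a 1.2-fold minimum and with colony as a random effect. The alternatives without a colony term (by edgeR, DESeq2 and limma) gave adjusted p-values of 0.000353 to 0.149. FR queens averaged 6.43 CPM and FM queens 8.13 CPM, but FR queens had the higher mean in both shared colonies. Those means were 6.79 CPM in FR and 4.19 CPM in FM queens of C2, and 7.62 CPM and 5.18 CPM in C3. FM queens of C7 averaged 15.0 CPM and FR queens of C9 4.10 CPM.

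Contig3729 fell in SR queens, which had 1.66 to 12.4 CPM with a median of 2.67, against 1.49 to 35.1 CPM with a median of 15.8 in SM queens. SR queen 39, at 12.4 CPM, lay with the SM queens, and SM queen 25, at 1.49 CPM, lay below every SR queen. Means were 3.77 ± 3.53 CPM in SR and 16.8 ± 10.5 CPM in SM queens (SD, n = 8 each), for a difference of -2.16 ± 0.53 on the log2 scale (SE; adjusted p = 0.0462 by edgeR). This was the least stable of the named contigs. It lost its call in 27 of 47 alternatives to the fit without a colony term, 20 of which left out 1 queen (SM queen 16, 17, 21, 22, 23 or 26, SR queen 40, 43, 44, 45, 47, 48 or 49, FR queen 27, 28, 31, 32, 33, 36 or 38), and its edgeR adjusted p reached 0.217 without the C9 queens. The smallest adjusted p over those alternatives was 0.00340.

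Over all tested contigs, the median SD of log2 CPM was 0.270 in SR and 0.316 in SM queens, and the SD was the larger in SM queens for 63.0% of contigs. Among contigs averaging 5 CPM or more, the medians were 0.139 in SR and 0.170 in SM queens, and the share was 67.6%. The median stayed at 0.134 to 0.142 when any SR queen was left out and at 0.162 to 0.175 when any SM queen was left out. For the called lower contigs the SD was the larger in SM queens for 18 of 18, with medians of 0.272 in SR and 0.537 in SM queens. For the called higher contigs it was so for 13 of 18, with medians of 0.270 in SR and 0.342 in SM queens. The SR medians of both called sets were thus near that of all contigs but above that of contigs averaging 5 CPM or more. The SM medians of both called sets were above those of either set. The median level was 16.0 CPM for the called higher and 34.0 CPM for the called lower contigs. Neither comparison set was matched to them in level, and 1390 of the 2917 contigs at 5 CPM or more averaged at least 100 CPM. The difference in spread was described, not tested.

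With a colony term, 0 of the 5606 contigs were called (0%), and the smallest edgeR adjusted p was 0.0856. At an unadjusted p under 0.05 there were 594 contigs (10.6%), 279 higher and 315 lower in SR queens. In this fit only C2 and C3 set SR beside SM queens directly, while the C9, C7, FR and FM queens also move the estimate, through the colony levels, and set part of the spread. Without the FR and FM queens the log2 difference of Contig2788 was -2.24 and that of Contig5102 was 1.12, against -1.74 and 0.92 with them. DESeq2 called 45 contigs and limma-voom with sample quality weights called 434 with the same terms. Leaving out SM queen 25 gave 18 edgeR calls, FM queen 15 gave 5, FR queen 37 gave 4, FM queen 6 gave 3, FM queen 14 gave 2 and FR queen 27 gave 1. The remaining 27 of 33 such fits gave 0.

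All 36 contigs called without the term had the same direction with it and an unadjusted p under 0.05, and their edgeR adjusted p-values were 0.0866 to 0.356. Of all 5606 tested contigs, 4793 had the same direction in both fits, and 594 had an unadjusted edgeR p under 0.05 with the term. For the 36, the fold change with the term was on average slightly smaller, at a median of 0.931 times that without it. It was the larger one for 5 of the 36. The standard error was larger for all 36, by a median of 1.14 times. Over all 5606 tested contigs, the median ratio of log2 fold changes was 0.887, and the one with the term was larger for 2724. The standard error was larger with the term for 5094 of all tested contigs, with a median ratio of 1.13. The larger error was thus not particular to the 36. The 2 estimates come from overlapping queens, so their likeness is partly built in. With the term, Contig1083 differed by 0.83 ± 0.21 on the log2 scale (SE; edgeR adjusted p = 0.140) and Contig5102 by 0.92 ± 0.21 (SE; edgeR adjusted p = 0.119). Contig2788 differed by -1.74 ± 0.53 (SE; edgeR adjusted p = 0.228), and Contig3729 had an edgeR adjusted p of 0.226.

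**Figure D2:**
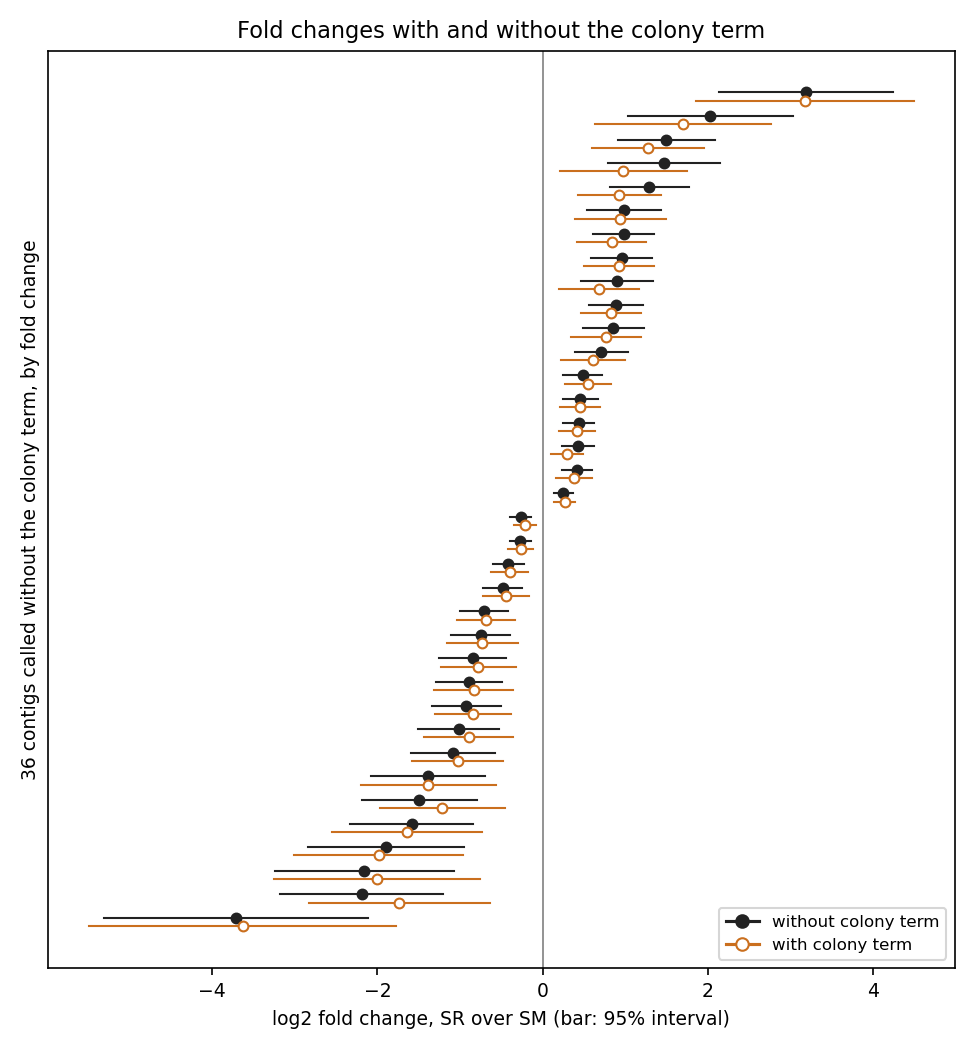
Log2 fold changes of SR over SM queens for the 36 contigs called without a colony term, ordered by size, with 95% intervals, from the fit without the term (filled) and with it (open). The points lie on the same side of 0 in both fits, and the intervals are wider with the term.

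The contigs with the lowest p in the fit with a colony term are given as values, since none was called. Contig1669 had 1.01 to 4.93 CPM in SR queens and 0.0724 to 1.22 CPM in SM queens, where SM queen 25 was the only SM queen above 0.320 CPM. Means were 2.84 ± 1.46 CPM in SR and 0.316 ± 0.375 CPM in SM queens (SD, n = 8 each). The log2 fold change was 3.17 ± 0.64 with the term (SE, edgeR adjusted p = 0.0866) and 3.19 ± 0.52 without it (SE, edgeR adjusted p = 0.00394). It was called in 47 of 47 alternatives to the fit without the term, with adjusted p-values of 2.43e-07 to 0.0249 over edgeR, DESeq2 and limma. Its level was low throughout, and FR queens averaged 1.24 CPM and FM queens 0.527 CPM.

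Contig2020 had 6.06 to 11.5 CPM in SR queens and 3.60 to 5.53 CPM in SM queens, with no overlap. The log2 fold change was 0.83 ± 0.18 with the colony term (SE, edgeR adjusted p = 0.119) and 0.89 without it (edgeR adjusted p = 0.00736). The second call was lost without the C9 queens (adjusted p = 0.0831) and with only C2 and C3 queens (adjusted p = 0.0507), and its smallest adjusted p over the alternatives without a colony term was 6.34e-05. Of the contigs at lower level in SR queens, Contig527 had 3.79 to 5.65 CPM in SR and 3.72 to 11.4 CPM in SM queens, for a difference of -0.75 ± 0.15 on the log2 scale with the term (SE; adjusted p = 0.0856 by edgeR). Its difference lay in C2, at 4.24 CPM in SR and 7.39 CPM in SM queens, and C3, at 4.87 CPM in SR and 8.92 CPM in SM queens, while SR queens of C9 had 5.29 CPM and SM queens of C7 had 4.90 CPM. Contig562 had 2.31 to 4.42 CPM in SR and 4.42 to 6.52 CPM in SM queens, so that the groups met at their edges (log2 fold change -0.66 ± 0.15 with the term, SE, edgeR adjusted p = 0.119).

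**Figure D3:**
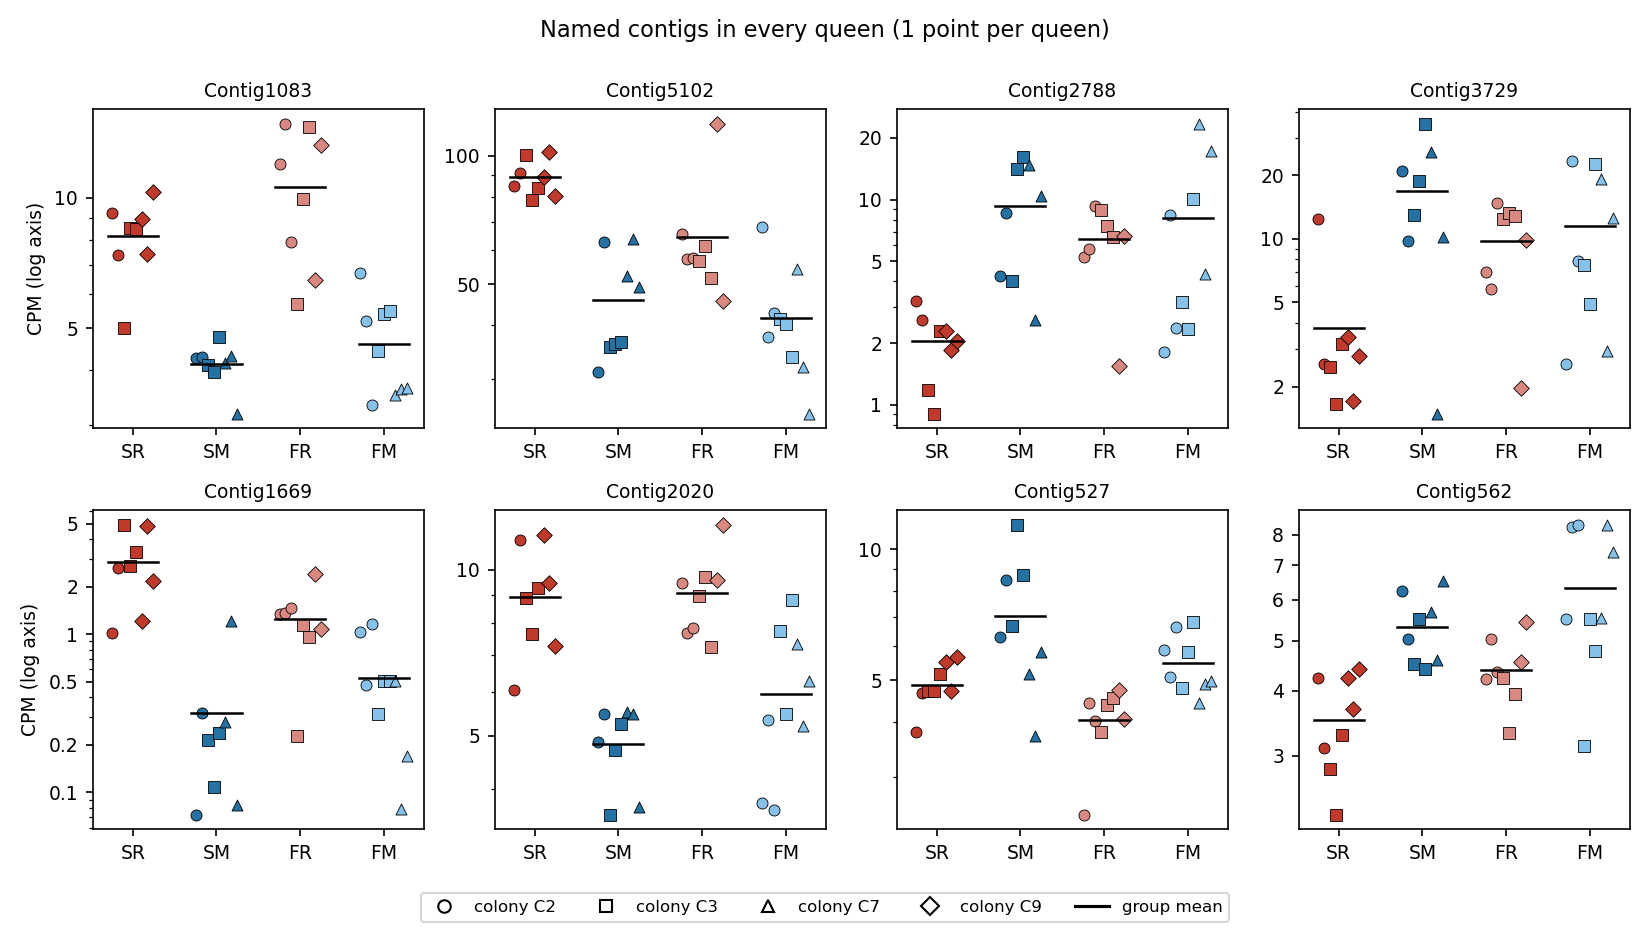
CPM of the 8 named contigs in each queen on a log axis, with a bar at the group mean, colour for group and shape for colony. SR queens lie above every SM queen for Contig1083, Contig5102 and Contig2020, and FR and FM queens are shown at the right of each panel.

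The queens of C2 and C3 were also fitted alone, with a colony term, since there no contrast rests on a colony with 1 group. That fit of 5 SR and 5 SM queens called 48 of 5221 contigs (0.919%), 22 higher and 26 lower in SR queens. Of these, 14 were among the 36 called over all colonies, which is 38.9% of the 36 and 29.2% of the 48, and all 14 had the same direction. Of the 36, 35 could be tested there, and all 35 had the same direction and 34 an unadjusted p under 0.05. Of all 5221 contigs tested there, 924 had an unadjusted edgeR p under 0.05, and the share with the same direction was not taken. The 36 were called partly on these same queens, so both counts are partly built in. With only these queens in the fit, the spread is estimated without the FR, FM, C7 and C9 queens, and 43 contigs were called when the colony term was dropped.

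Whether the SR and SM queens differed in the same way in C2 and in C3 was tested directly. No contig was called for a difference of the effect between the colonies (0%), and 130 had an unadjusted p under 0.05 (2.32%), with a smallest edgeR adjusted p of 1.00. limma-voom called 0 contigs as well, with 226 at an unadjusted p under 0.05. With 2 or 3 queens behind each mean this test was coarse. For contigs averaging 5 CPM or more, its 95% intervals reached a median of 0.515 on the log2 scale to either side of the estimate. These intervals are not adjusted for the number of contigs, so differences well above that could also go uncalled. The effect differed between the colonies by 2.15 ± 1.38 for Contig3729 (SE; unadjusted p = 0.132 by edgeR) and by 1.80 ± 1.13 for Contig2788 (SE; unadjusted p = 0.126 by edgeR). All 36 contigs called without a colony term had the same direction in C2, in C3 and between the C9 and C7 queens, against 41.0% of all tested contigs, which the choice of contigs partly fixes. The median absolute difference of their mean log2 CPM was 0.953 in C2, 0.912 in C3 and 0.842 between SR queens of C9 and SM queens of C7.

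The intervals limit how large a missed difference could be. With the colony term, the 95% interval lay within 2-fold in either direction for 4119 contigs (73.5%), and without it for 4342 (77.5%). Among the 2917 contigs averaging 5 CPM or more, these shares were 91.6% with the term and 92.5% without it, and the intervals reached a median of 0.23 and 0.20 on the log2 scale to either side. Estimates over 2-fold were made for 155 contigs with the term, 61 higher and 94 lower in SR queens, and for 176 without it, 72 higher and 104 lower.

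**Figure D4:**
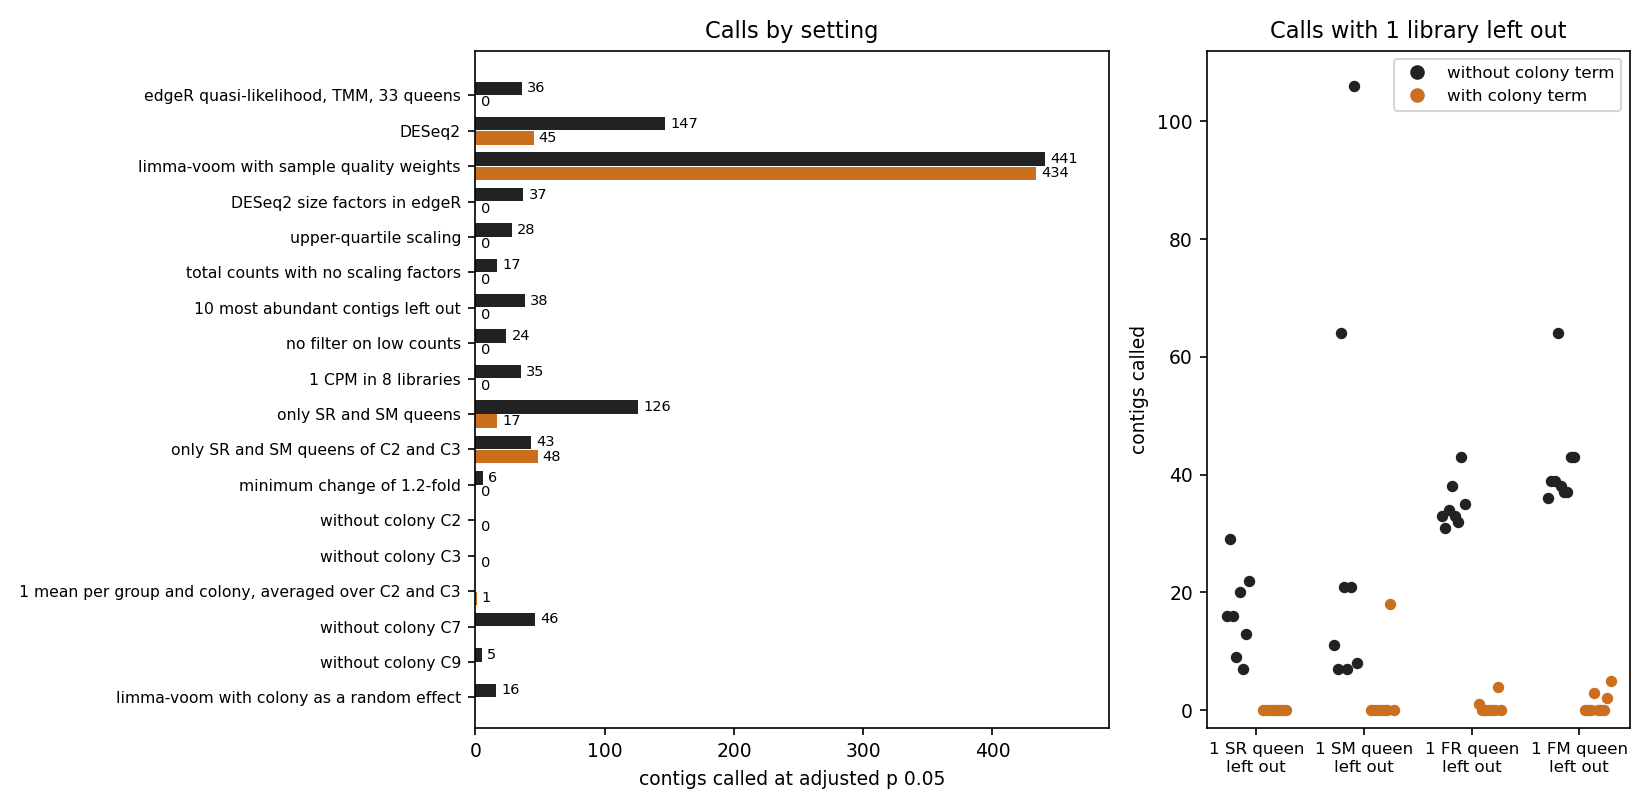
Left, number of contigs called at an adjusted p of 0.05 under each setting, without (black) and with (orange) a colony term; right, the edgeR count with 1 library left out, by the group of that library. Counts run up to 441 without and 434 with the term, and without SM queen 25 they are 106 and 18; settings that apply to only 1 of the fits have 1 bar.

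The 36 contigs were then read in the FR and FM queens, which had no part in the SR and SM means but shared the scaling and the spread. By the edgeR estimates without a colony term, 15 of the 18 contigs higher in SR than in SM queens were also higher in FR than in FM queens, against 44.7% of the 2801 tested contigs with the higher estimate in SR queens. Of the 18 lower contigs, 7 (38.9%) were also lower in FR than in FM queens, against 44.7% of the 2805 tested contigs with the lower estimate in SR queens. By the difference of mean log2 CPM the counts were 17 of 18 higher (46.9% of such contigs in all) and 4 of 18 lower (41.9%), so the count for the lower contigs depends on the measure. The edgeR count was added after the values were seen. Inside both C2 and C3, the direction of the mean log2 CPM was the same for 10 of the 18 higher contigs (33.5% of such contigs in all) and for 1 of the 18 lower ones (24.7%). These counts carry no test, and the higher and lower contigs were not compared with each other. FR queens were called higher than FM queens for 566 contigs (10.1%) and lower for 586 (10.5%) by edgeR without a colony term. Among these were 7 of the 18 higher contigs and 1 of the 18 lower contigs, each in the same direction, and 0 in the opposite one.

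**Figure D5:**
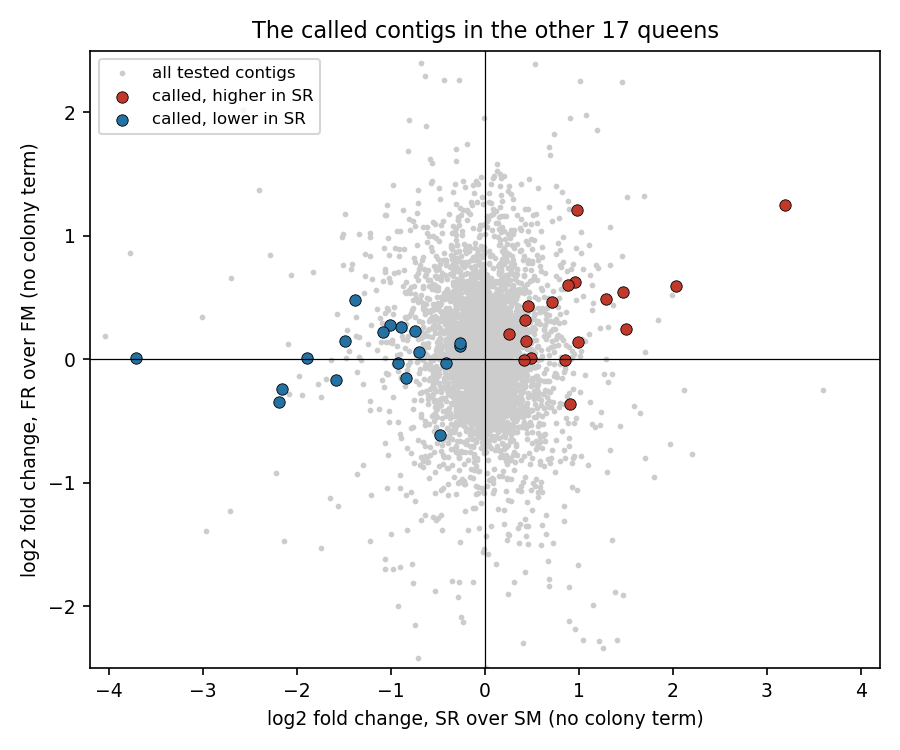
Log2 fold change of SR over SM queens without a colony term (x axis) against that of FR over FM queens from the same fit (y axis), 1 point per contig, with 16 contigs outside the axes. The called higher contigs lie above 0 on the y axis for 15 of 18, and the called lower contigs lie below 0 for 7 of 18.

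Ordered by group mean of log2 CPM, SR queens were the highest of the 4 groups for 15 of the 18 higher contigs and SM queens the lowest for 14, with both true of 11. Over all tested contigs with the higher estimate in SR queens, those shares were 50.8% and 40.4%, with both true of 298 of 2801. For the 18 lower contigs, SR queens were the lowest group for 17 and SM queens the highest for 13, with both true of 13. Over all tested contigs with the lower estimate in SR queens, those shares were 54.2% and 33.7%, with both true of 258 of 2805. The called contigs were chosen for the SR and SM levels, so a place of these groups at the ends of the order is partly fixed by that choice.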

How the data were processed

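Brain mRNA of 33 queens was sequenced, and the authors deposited raw read counts per contig, 1 column per library, per the file headers. FastQC, TopHat, SAMtools and edgeR are named in the submitters' processing notes; genome build, annotation and counting program were not given in the sources used here. Deposited tables of scaled values were not used. The contigs, comparisons and alternatives were chosen with earlier results of these data known.

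Contigs were kept by filterByExpr (minimum count 10; 99.99% of reads), scaled by TMM and fitted over all 33 queens with edgeR 4.0.16 under R 4.3.3 (robust quasi-likelihood), with group alone or group and colony as terms, and called at a Benjamini-Hochberg adjusted p of 0.05. Standard errors are fold changes divided by the root of F. Log2 CPM used a prior count of 2. Named contigs had the largest fold change, at most 2 per direction, among called contigs with at least 5 CPM and 1 direction in C2 and C3; with no calls, the lowest p. Exact two-sided permutation tests used scipy 1.17.1. Alternatives used DESeq2 1.42.0, limma 3.58.1, other scalings and filters, and left out queens or colonies. No pair of the 120 agreed within sampling noise (lowest chi-square per degree of freedom 203). Intervals and tests rest on the spread between individual queens, which are not independent where they share a colony.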

Additional observations from a re-analysis of the deposited data

Results flagged for a closer look

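Among 34 sets of 8 values, 4 held a queen far from the others of its group, by a gap of more than 0.526 of the group's range (Dixon's 95% limit for 8 values, which chance passes in about 1 of 20 sets). SR queen 47, of colony C9, scored -7.38 on component 1, where the nearest SR queen scored 7.95. Its mean distance to the other SR queens was 0.759, where the next largest was 0.692. SR queen 39 had 12.4 CPM of Contig3729, where the nearest SR queen had 3.43 CPM. SM queen 25 had 1.22 CPM of Contig1669, where the nearest SM queen had 0.320 CPM.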

How the results depend on the processing

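Without a colony term, the count of 36 became 147 by DESeq2, 441 by limma-voom with sample quality weights, 126 with only SR and SM queens, 17 with total counts, 6 against a 1.2-fold minimum, 5 without colony C9 and 16 by limma-voom with colony as a random effect. It was 24 to 46 under the 7 other settings and 7 to 106 with 1 library left out. It moved by over 1.5 times in 16 of those 33 fits: 7 without SM queen 17 or 22 or SR queen 47, 8 without SM queen 26, 9 without SR queen 44, 11 without SM queen 16, 13 without SR queen 48, 16 without SR queen 39 or 43, 20 without SR queen 45, 21 without SM queen 21 or 23, 22 without SR queen 49, 64 without SM queen 19 or FM queen 6 and 106 without SM queen 25. The count of 0 with a colony term became 45 by DESeq2, 434 by limma-voom, 17 with only SR and SM queens, 48 with only C2 and C3 queens, 1 with 1 mean per group and colony, and 0 to 18 with 1 library left out. Total counts shifted the median log2 fold change of all contigs to -0.10 with the colony term. The difference of the effect between C2 and C3 gave 0 calls throughout. Contig3661, the contig with the lowest p for that difference, is below 1 CPM in every group and has 0 counts in both SR queens of C2; its SR over SM log2 fold change was 0.0203 without colony C2 and -0.99 with it, on counts too low for a bound. The SR minus SM difference in contigs detected was 3.25 over all queens and -24.8 within C2 and C3. No paired analysis was possible because replicate numbers are not shared between groups. The causes of these shifts were not tested.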
